A study of Mus musculus with 2 samples.

Results

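The clustered histone genes were compared between a pair of mouse epiblast stem cell cultures that were reached by different routes. The genes were chosen by name, as every gene on the array whose symbol starts with Hist, a cluster number from 1 to 4 and h, followed by the histone type. This rule took 44 of the 34650 gene names on the array, with 51 probes. They comprised 6 H1, 12 H2a, 9 H2b, 8 H3 and 9 H4 genes, and by the mm9 probe coordinates 34 lay on chromosome 13, 8 on chromosome 3, 1 on chromosome 11 and 1 on chromosome 6. Of the 44, 43 had a probe well above background, each of them on both arrays, beside 25851 genes in all with such a probe on at least 1 array. The gene without one was Hist1h1d, a linker histone gene, whose single probe read 36.4 intensity units in EpiSC and 34.8 in ELA-EpiSC. Symbols are those of the array design, and all 44 genes carry another symbol in the RefSeq table of assembly GRCm38.p6 (Hist1h1b is now H1f5, and Hist1h4i is now H4c9).

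Both cultures derived from E14Tg2A, an embryonic stem (ES) cell line of strain 129/Ola that was kept on gelatin in medium with 10% serum and 1000 U/mL LIF. For EpiSC, the ES cells were transferred to a chemically defined medium with FGF2 at 12 ng/mL and Activin A at 20 ng/mL. For ELA-EpiSC, the cells were first left to form epiblast-like aggregates (ELA) without LIF and serum, and were then kept in that same medium with the same factors. Each group had 1 array, hybridized with RNA pooled from 3 experiments, so no difference below has a replicate check or a p-value, and both cultures are models from 1 cell line. The groups were taken from the sample titles, because the source fields of both samples name undifferentiated cells, and the one given for EpiSC refers to an Argonaute immunoprecipitate.

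Most clustered histone genes are replication-dependent: they supply the core histones H2A, H2B, H3 and H4 and the linker histone H1 while DNA is copied in S phase. Their mRNAs lack introns and, alone among the mRNAs of animal cells, usually end in a conserved stem-loop and not in a poly(A) tail. The stem-loop is bound by SLBP, which directs the cut of the 3′ end by the U7 snRNP and later the fate of the mRNA, and NPAT switches on transcription of the genes at S-phase entry. Some clustered genes also make longer, polyadenylated transcripts that read past the stem-loop, mainly in cells that have left the cycle. The labelling kit used here starts cDNA from an oligo(dT) primer, so how much of each form of histone RNA entered the labelled sample is unknown, and its part in the results was not tested.

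The stem-loop itself could be read in 5 of the 51 histone probes, 9.8% of them, against 44 of 55681 probes for transcripts on the array (0.079%). The form searched was a stem of 6 bases beginning with GG, a loop of 4 and the complementary stem. The windows are shown because they tell where in the RNA these probes sit, at its normal end. They are printed 5′ to 3′ with the stem-loop in capitals, as DNA.
Hist2h2bb: cccaaaaGGCTCTTTTCAGAGCCactt
Hist1h3a: aaccaaaGGCTCTTTTCAGAGCCaca
Hist1h3g: ctttaaaGGCTCTTCTTAGAGCCaccc
Hist1h3i: aacaaaaGGCTCTTTTCAGAGCCccct
Hist1h4m: aactaaaGGCCCTTTTCAGGGCCatcc
The probes of Hist2h2bb (chr3:96074056-96074115, plus strand, mm9), Hist1h3a (chr13:23853756-23853815, minus strand) and Hist1h3i (chr13:21874784-21874843, minus strand) carry one and the same loop. Those of Hist1h3g (chr13:23627719-23627778, plus strand) and Hist1h4m (chr13:21903960-21904019, plus strand) differ from it in the loop and in the stem, respectively.

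Probes of the coding sequence are often shared in part between histone genes. The aligned probes of 4 H2a genes, each ending at the stop codon, are shown because they set how far the genes can be told apart on the array. Capitals mark the 10 of 60 positions at which they differ.
Hist1h2af: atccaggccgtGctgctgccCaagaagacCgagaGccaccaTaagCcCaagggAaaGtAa
Hist1h2ak: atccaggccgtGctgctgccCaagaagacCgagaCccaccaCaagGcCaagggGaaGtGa
Hist1h2an: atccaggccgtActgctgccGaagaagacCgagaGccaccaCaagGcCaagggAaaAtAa
Hist2h2aa2: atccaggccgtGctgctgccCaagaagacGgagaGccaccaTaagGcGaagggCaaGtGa
These lie at chr13:23626113-23626172 (plus strand), chr13:21845304-21845363 (minus), chr13:21902669-21902728 (plus) and chr3:96043781-96043840 (minus) in mm9. Pairs of them were identical at 86.7 to 91.7% of positions, and for 16 of the 51 histone probes the array design names more than 1 RefSeq gene, up to 4. Values of such genes are therefore uncertain as to which copy gave the signal, and the genes are not independent of each other.

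Levels were quantile-normalized log2 signals, and every difference is the log2 level in ELA-EpiSC minus that in EpiSC. No histone gene passed a difference of 1 in either direction among the 36 whose mean log2 level reached 7.5 (0 in favour of ELA-EpiSC, 0 in favour of EpiSC). Over all 16649 genes at this level, 4.54% passed in the direction of ELA-EpiSC and 4.46% in that of EpiSC. The 43 differences ran from -0.85 for Hist1h3f to 0.82 for Hist1h1b. In size, 30 of them (69.8%) were smaller than 0.5, beside 78.9% of all 25851 genes. The median was 0.14, with 28 genes higher and 15 lower in ELA-EpiSC, beside -0.01 over the 25851 genes, of which 50.8% were lower. The only error that could be measured was that between spots of 1 probe: over 312 detected probes printed 10 times, the difference between the arrays had an SD of 0.10, which covers neither labelling nor culture. By this measure 25 of the 43 histone genes differed by more than 2 SD and 5 by less than 1 SD. Differences of this size were common in general, with lower and upper quartiles of -0.21 and 0.21 over all 25851 genes.

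**Figure D1:**
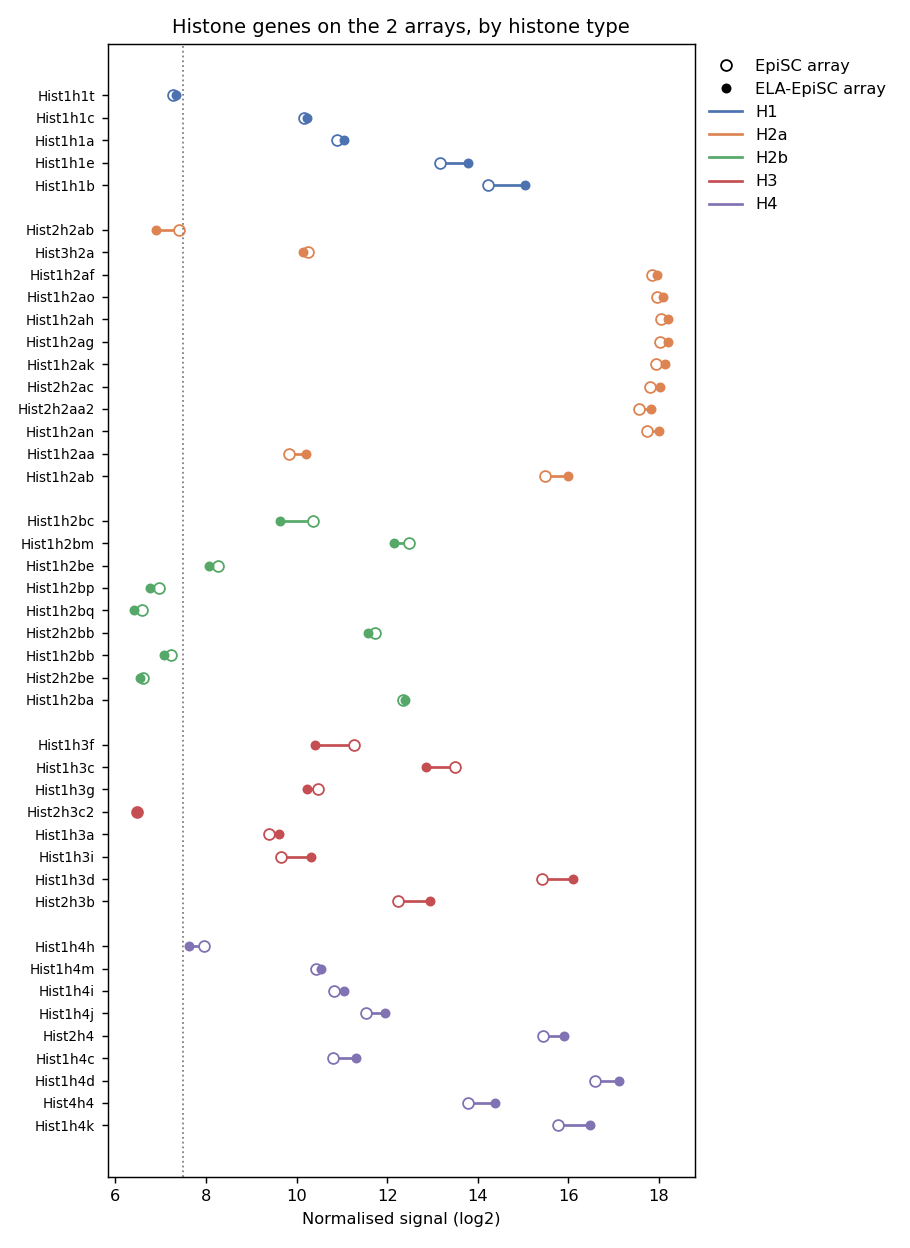
Normalised signal (log2) of the 43 histone genes on the EpiSC array (open circles) and the ELA-EpiSC array (filled circles), grouped by histone type and sorted by the difference; the dotted line marks the minimum level of 7.5. Only the circles of 1 gene can be compared, since probes differ in brightness; the filled circle lies to the right for 28 genes, among them all 5 of H1, and to the left for 8 of the 9 of H2b.

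The direction went with the histone type. H1, H2a and H4 were mostly higher in ELA-EpiSC, H2b was mostly lower, and H3 was divided. Medians were 0.15 for H1 (5 genes higher, 0 lower), 0.18 for H2a (10 higher, 2 lower), -0.17 for H2b (1 higher, 8 lower), 0.11 for H3 (4 and 4) and 0.45 for H4 (8 higher, 1 lower). Scaling decided part of this: with each array set to its 75th percentile in place of quantile normalization, the median of all genes moved to -0.18, and that of H2a to -0.09 and of H3 to -0.01, whereas H1 (0.15) and H4 (0.21) remained above 0. With the arrays set to the spike-in RNA, which read lower in ELA-EpiSC by 0.53 on average, every difference rose by that amount and the median of H2b became 0.37. Relative to the median of all genes, H1, H3 and H4 lay above it and H2b below it in all 12 alternatives that gave each difference again. H2a lay below it in 1, the processed signal of the scanner software. Not all 12 could change this. Spike-in scaling moves all genes alike, and 75th percentile and median scaling differ only by a constant. The changes of the detection filter left the values of the histone genes reported here as they were.

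**Figure D2:**
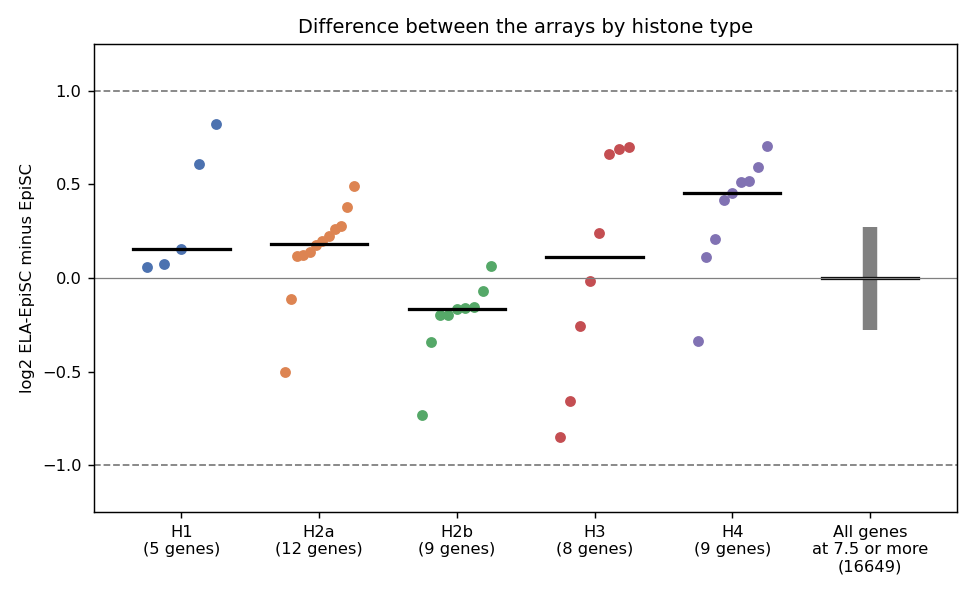
Difference between the arrays, log2 ELA-EpiSC minus EpiSC, for each histone gene (points) by type, with the median as a black line; the grey bar is the middle of the distribution (lower to upper quartile, -0.28 to 0.27) of all 16649 genes whose mean log2 reached 7.5, and dashed lines mark -1 and 1. No point crosses a dashed line, and H2b is the type with nearly all points below 0.

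Linker histones bind the DNA between nucleosomes and compact the fibre. Hist1h1b, which encodes the H1.5 subtype, had a log2 level of 14.22 in EpiSC and 15.05 in ELA-EpiSC (0.82, a 1.77-fold higher signal). Hist1h1e, which encodes H1.4, followed with 13.17 and 13.78 (0.61). The other linker genes lay closer together: Hist1h1a had 10.90 and 11.05 (0.15), and both Hist1h1c, at 10.15 and 10.23 (0.08), and the testis-type Hist1h1t, at 7.28 and 7.34 (0.06), were within 1 SD of spots. Differences of Hist1h1b ranged from 0.51 to 0.87 over the alternatives apart from spike-in scaling, and those of Hist1h1e from 0.54 to 0.77. Hist1h1c and Hist1h1t had the opposite sign on the processed signal (-0.006 and -0.027), and Hist1h1t also with 75th percentile scaling (-0.09).

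H2A forms a dimer with H2B at the faces of the nucleosome. In 8 of the 12 H2a genes the signal was near the top of the scale on both arrays without being saturated, and all 8 were slightly higher in ELA-EpiSC. For Hist1h2ag the levels were 18.03 and 18.20 (0.17), for Hist1h2ah 18.05 and 18.19 (0.14), and for Hist1h2ak 17.93 and 18.13 (0.195, or 1.14-fold). The smallest of the 8 was that of Hist1h2af at 0.12 and the largest that of Hist1h2an at 0.28. These probes overlap in what they measure: those of Hist1h2an and Hist1h2ao share bases of the genome, and the 4 aligned probes printed above belong to this set. The direction of these 8 genes rests on the scaling, since all 8 were lower in ELA-EpiSC with the processed signal (-0.19 to -0.095) and with 75th percentile scaling.

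All genes of this brightness moved with the scaling as well. Over the 936 genes with a mean log2 of 16 or more, the median was 0.00 as reported, -0.37 on the processed signal and -0.33 with 75th percentile scaling. The 10 histone genes of this class, the 8 of H2a and the H4 genes Hist1h4d and Hist1h4k, were each above the median of their class in 10 of 10 cases under every one of these scalings, by a median of 0.21, 0.23 and 0.25. These scalings move genes of the same brightness nearly alike, so they could hardly change this relation, and nothing is concluded from its being kept. The H2a probes of this class also overlap in what they measure and are not separate observations. In the dimmer classes the relation to genes of the same brightness was not the same. As reported, 1 of 7 histone genes under 7.5 lay above the median of their class, and 2 of 5 from 7.5 to 10. From 10 to 13 it was 9 of 14, and from 13 to 16 it was 6 of 7. Direction thus went with brightness too, and the part of brightness was not tested.

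The remaining H2a genes included those at the ends of the range. Hist1h2ab, a replication-dependent gene, had levels of 15.49 and 15.98 (0.49), and Hist1h2aa, whose product is a testis-type H2A, had 9.83 and 10.21 (0.38). Below 0 were Hist3h2a, a gene outside the large clusters, at 10.26 and 10.15 (-0.11), and Hist2h2ab, at 7.40 and 6.90 (-0.50), a probe close to the background. A second probe for Hist1h2ak, nearer to the start of the gene, gave 15.34 and 16.06, a difference of 0.715 where the probe at the end gave 0.195.

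H2b was the type that went the other way. Of its 9 genes, Hist1h2ba alone was above 0, at 12.34 in EpiSC and 12.40 in ELA-EpiSC (0.06, within 1 SD of spots); its product is the testis-type H2B. Among the replication-dependent genes, Hist1h2bm had 12.48 and 12.14 (-0.34) and Hist2h2bb had 11.73 and 11.57 (-0.16). The most negative, Hist1h2bc, named here after its values were seen, had 10.36 and 9.63 (-0.73, 1.66-fold lower in ELA-EpiSC). Hist1h2bc kept its sign in all 12 alternatives, spike-in scaling included (-0.20), whereas the other 7 negative H2b genes turned positive there. Of the 9, 4 had a mean log2 under 7.5, where the offset added in background correction compresses differences. No H2b probe was among the very bright ones, unlike 8 of the H2a probes.

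H3 and H4 form the tetramer at the core of the nucleosome. H3 had the widest spread of any type, from -0.85 to 0.70, and its genes fell on both sides of 0 by more than the spot error. Hist1h3d, at 15.41 and 16.10 (0.69), Hist2h3b, at 12.24 and 12.94 (0.70), and Hist1h3i, at 9.65 and 10.32 (0.66), were all higher in ELA-EpiSC, and each kept that sign in all 12 alternatives. Hist1h3c, at 13.51 and 12.85 (-0.66), and Hist1h3f, at 11.26 and 10.41 (-0.85), were lower, and kept that sign as well. Among the named genes of the rule are Hist1h3c, Hist1h3d and Hist2h3b; Hist1h3f and Hist1h3i were added after their values were seen.

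The probes of Hist1h3c and Hist1h3f are the H3 probes that cover a start codon, and their coding parts are shown because these genes are the most negative of the type. The start codon is in capitals.
Hist1h3c: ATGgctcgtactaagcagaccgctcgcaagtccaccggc
Hist1h3f: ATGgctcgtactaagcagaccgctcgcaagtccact
The first is part of the probe at chr13:23837328-23837387 (minus strand, mm9) and the second of that at chr13:23636330-23636389 (plus strand). Over the 36 bases that both stretches hold, they were identical at 35, whereas the whole probes of 60 bases were 75% identical, under the 80% used further on for probes called alike. How far the pair reads the same RNA was not tested.

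H4 genes encode one and the same protein from different coding sequences. Hist1h4d had levels of 16.59 and 17.11 (0.52), Hist1h4k 15.76 and 16.46 (0.71) and Hist2h4 15.45 and 15.90 (0.45). Each of these has a second probe, and in each both probes were higher in ELA-EpiSC, by 0.42 and 0.52 in Hist1h4d, 0.50 and 0.71 in Hist1h4k, and 0.38 and 0.45 in Hist2h4. Hist4h4, which stands alone on chromosome 6, showed 13.79 and 14.38 (0.59). Hist1h4h was the 1 gene of the type below 0, at 7.96 and 7.63 (-0.33). Of the 9, 8 kept their sign apart from spike-in scaling, and in the case of Hist1h4i the sign depended on the probe.

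Hist1h4i was read by 3 probes that follow each other along the genome, each numbered by the array design in a transcript model of its own. The probe starting at base 33 gave 10.83 in EpiSC and 11.04 in ELA-EpiSC (0.21). That at base 483 gave 10.39 and 10.29 (-0.10), and that at base 574 gave 10.38 and 9.45 (-0.92, or 1.90-fold lower). Thus the probe inside the gene was higher in ELA-EpiSC, and the probe farthest past its end was lower, although the RefSeq gene is 403 bases long. The signs of the first and the last probe were the same in all 12 alternatives, although those that change the detection filter or average probes cannot alter a single probe. Averaging the 3 probes gave -0.27 for the gene.

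After this was seen, all detected histone probes were divided by where they lie. Of 50 such probes, 6 reach past the end of the RefSeq gene and 5 lie in genes whose RefSeq span exceeds 1000 bases, far more than a replication-dependent histone mRNA has. Of these 11, 10 were lower in ELA-EpiSC, with a median of -0.145, and the 1 that was higher was Hist1h1c. Of the 39 probes within genes whose span is up to 1000 bases, 31 were higher and 8 lower, with a median of 0.24. This class includes Hist1h3f (-0.85), whose RefSeq span is 903 bases. Of the 6 of the 11 probes whose mean log2 reached 7.5, 5 were lower, but these include the Hist1h4i probes at bases 483 and 574 that prompted the division. The others of the 6 were Hist1h1c (0.08), Hist3h2a (-0.11), Hist1h2be (-0.20) and Hist1h2bc (-0.73). It is a description made on the values themselves, with no test.

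**Figure D3:**
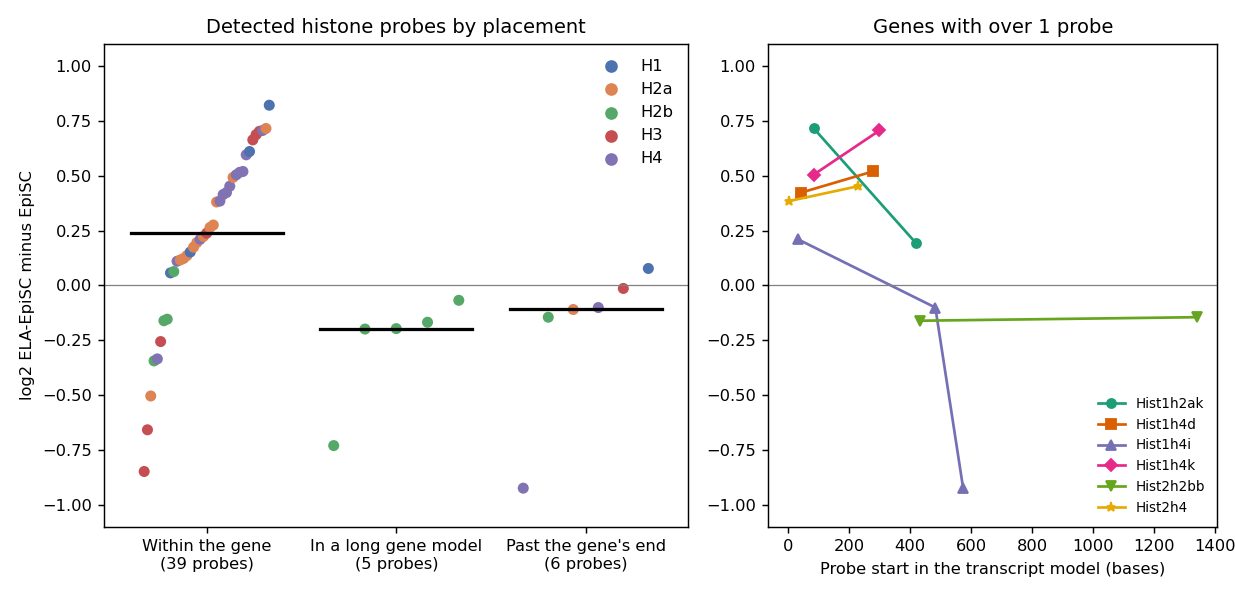
Difference between the arrays (log2 ELA-EpiSC minus EpiSC) for the 50 detected histone probes by placement, coloured by histone type, with the median of each class as a black line (left). The right panel shows the 6 genes with more than 1 probe, by the start of each probe in its transcript model, which can differ between probes of 1 gene. Of the 11 probes in long gene models or past a gene's end, 10 lie below 0, and the line of Hist1h4i runs from 0.21 at its first probe to -0.92 at its last.

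Type and placement overlap, and neither could be held fixed for all genes. All 5 long gene models are H2b genes (Hist1h2bc, Hist1h2be, Hist1h2bp, Hist1h2bq and Hist2h2be), and all 5 were below 0. Among the 4 H2b genes read within the gene, 3 were below 0 as well, with a median of -0.16. Among genes read within the gene, the medians of the other types were 0.38 for H1 (4 genes), 0.20 for H2a (11), 0.24 for H3 (7) and 0.45 for H4 (9).

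Base composition went with both. The median GC content was 40% in the 11 probes past the end or in long models and 55% in the 39 others. By GC content of the probe used, 6 of 17 histone genes were higher in ELA-EpiSC at up to 45%, 12 of 16 between 45 and 55%, and 10 of 10 above 55%; among genes read within the gene the first of these shares was 5 of 9 and the others did not change. Over all genes whose mean log2 reached 7.5 there was no such course, with medians of 0.01, -0.02 and -0.03 in the same classes (13087, 3240 and 322 genes). The sets are not alike, since the histone counts had no minimum level. The 7 histone genes under 7.5 all fell in the class of up to 45%, and 6 of the 7 were lower in ELA-EpiSC. Probes named for more than 1 RefSeq gene were higher in 14 of 16 cases, and the 8 probes at least 80% identical to a probe of another histone gene were higher in 8 of 8; these share sequence, so they do not count as separate observations. Among the 5 probes with the stem-loop, 3 were higher (Hist1h3i, Hist1h3a and Hist1h4m) and 2 lower (Hist1h3g and Hist2h2bb).

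The promoters of the histone types carry different motifs. In windows from 250 bases before to 50 after the start, 39 of the 44 genes could be looked up in RefSeq (GRCm38.p6), beside 27025 genes in all. CCAAT, the site of the NF-Y factor, stood on either strand in 33 of 39 histone genes and in 41.1% of all genes; all H1, H2a, H2b and H3 genes had it, and 2 of 8 H4 genes. TATAAA, the TATA box, stood in 21 of 39 and in 15.7% of all. ATTTGCAT, the octamer bound by POU factors, stood in 10 of 39 and in 1.97% of all, in 5 of 12 H2a and 5 of 7 H2b genes and in 0 of the H1, H3 and H4 genes. The H2b genes Hist1h2ba and Hist1h2bb hold all of these, and parts of their promoters are printed with the octamer and the TATA box in capitals.
Hist1h2ba: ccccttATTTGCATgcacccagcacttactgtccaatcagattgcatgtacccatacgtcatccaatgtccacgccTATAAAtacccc
Hist1h2bb: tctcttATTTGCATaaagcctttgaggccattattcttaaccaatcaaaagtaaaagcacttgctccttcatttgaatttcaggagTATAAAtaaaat
In GRCm38.p6 these are chr13:23934239-23934326 (minus strand) and chr13:23746638-23746735 (plus strand). Of these 2 genes, Hist1h2ba was at 0.06 and Hist1h2bb at -0.15, with levels of 7.22 and 7.07 in the latter, both under 7.5. Whether the octamer goes with a direction was not tested.

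Genes that serve histone mRNAs and histone proteins were also measured, from lists of other genes. Among 17 genes of 3′ end processing, 0 passed 1 in either direction, with a median of 0.08. Slbp had levels of 12.13 in EpiSC and 11.58 in ELA-EpiSC (-0.55), so the stem-loop-binding protein mRNA was lower where most histone genes were higher. Its probes ranged from -0.69 to -0.55. Of 12 measured transcription factors and cofactors of histone genes, 0 passed 1, with a median of 0.06; the probe of Npat did not rise well above background.

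Histone mRNA decay was the list of this kind with members past 1. Of its 14 genes, 2 passed 1 towards ELA-EpiSC and 0 towards EpiSC, with a median of 0.06. Over all genes at a mean log2 of at least 7.5 the shares were 4.54% and 4.46%, and the list is too short to set apart from them. They were Xrn1, a 5′ to 3′ exonuclease, at 8.94 and 10.07 (1.13), and Zcchc11, a uridylyltransferase that adds uridines to RNA ends, at 10.73 and 11.78 (1.05); the probes of Zcchc11 ranged from 0.60 to 1.05. Among 29 histone chaperones and importers, 0 passed 1, and the median was 0.09.

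The variants listed as replication-independent, most of which are made also outside S phase and from polyadenylated mRNAs, gave a median of -0.15 over 14 genes, with 6 higher and 8 lower and 0 past 1. H3f3b, which encodes H3.3, was the most positive, at 15.64 and 16.55 (0.91), whereas H3f3a, which encodes the same protein, had 16.08 and 15.83 (-0.25). H2afx, the variant phosphorylated at DNA breaks, had 15.23 and 14.99 (-0.24), and H2afz 17.47 and 17.49 (0.02). The linker variants H1f0, at 9.32 and 9.67 (0.35), and H1fx, at 10.38 and 10.41 (0.02), were above 0.

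**Figure D4:**
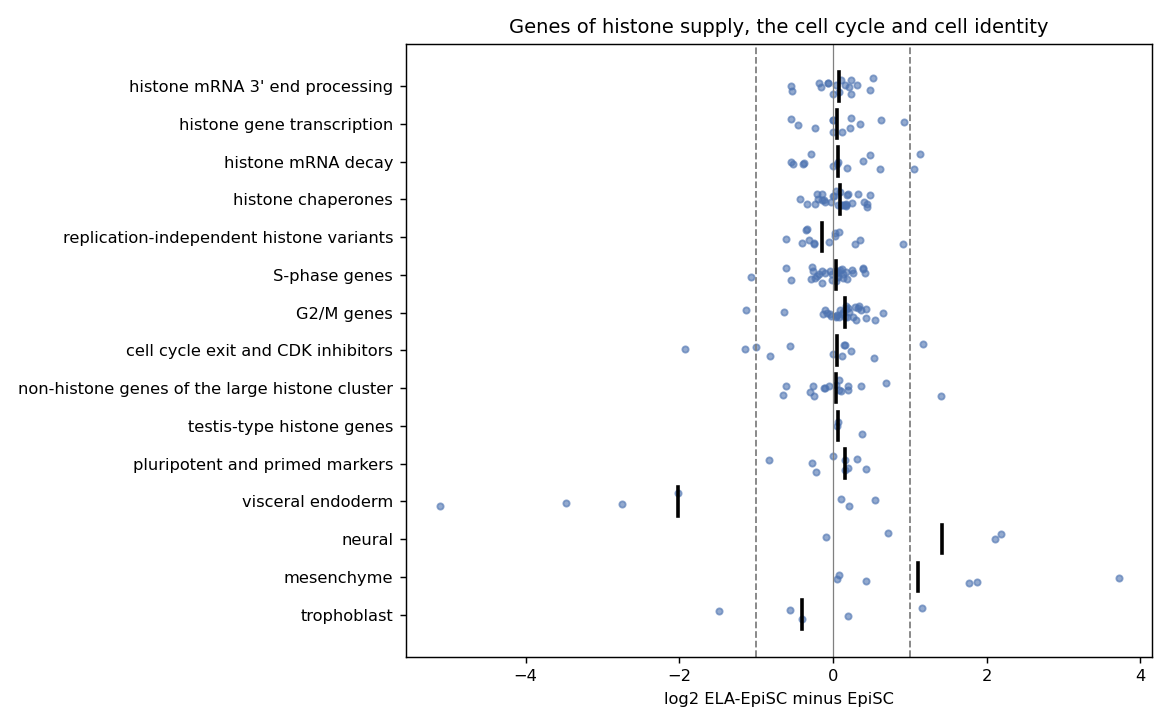
Difference between the arrays (log2 ELA-EpiSC minus EpiSC) for the genes with a value in each list, 1 point a gene with random vertical offset, the black line at the list's median and dashed lines at -1 and 1. Lists that serve histone supply and the cell cycle centre near 0, and the cell type lists at the bottom hold the points farthest from it, down to -5.12.

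The cell cycle lists had medians near 0, and their counts past 1 stand beside the same 4.54% and 4.46% over all genes. Of 32 S-phase genes, 0 were past 1 in ELA-EpiSC and 1 in EpiSC, with a median of 0.04; the 1 was Fen1, the flap endonuclease of lagging-strand synthesis, at 14.20 and 13.14 (-1.06). Pcna, the sliding clamp, had 15.97 and 15.95 (-0.01). Of 30 G2/M genes, 0 and 1 were past 1, with a median of 0.16 and 23 genes higher; the 1 was Aurkb, a mitotic kinase, at 8.80 and 7.66 (-1.13). Among 12 genes of cell cycle exit, 1 was past 1 in ELA-EpiSC, Rb1 at 9.75 and 10.93 (1.18), and 3 in EpiSC, the CDK inhibitor genes Cdkn2a, at 12.19 and 10.26 (-1.93), and Cdkn2b, at 11.58 and 10.58 (-1.003), and the cyclin gene Ccng2, at 8.31 and 7.17 (-1.14). The part of these in the histone values was not tested, and in bulk RNA fewer cells that make a transcript and less of it per cell cannot be told apart.

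Neighbours of the histone genes within the large cluster did not stand apart either. Of 17 non-histone genes there with a value, 8 reached a mean log2 of 7.5 and 0 of these passed 1, with a median of 0.04 over the 17.

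Both cultures had signal for general, primed and ground-state markers of pluripotent cells. Zfp42 (Rex1), Klf4 and Esrrb count as ground-state markers in the study. In EpiSC and ELA-EpiSC, Zfp42 had 9.54 and 9.32, Klf4 9.46 and 9.62, and Esrrb 9.57 and 10.01. All 9 pluripotent and primed markers were above background on both arrays, among them Pou5f1, at 14.27 and 14.47, and Fgf5, at 15.19 and 15.34; their summed signal was 268872 units in EpiSC and 218223 in ELA-EpiSC, and 0 of 9 passed 1. Of the 9, 6 were higher in ELA-EpiSC, with a median of 0.16, and the sum was lower through Dnmt3b, at 17.07 and 16.24 (-0.84). Some markers of other cell types differed more than any histone gene, and others did not. Visceral endoderm markers were all (7 of 7) detected on the EpiSC array and 5 of 7 on the other, where Ttr and Apoa1 were not well above background, and summed to 9512 and 973 units. The endoderm regulator Hnf4a had 12.79 and 7.67 (-5.12), and Amn, a subunit of the cubilin receptor, 10.00 and 7.25 (-2.75). The list was not of one direction: Apob (0.55), Afp (0.21) and Cubn (0.11) were higher in ELA-EpiSC, and Hnf4a made up most of the sum in EpiSC.

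Neural and mesenchymal markers were mostly higher in ELA-EpiSC. Of 5 neural markers 4 had a value and Pax6 had none; 3 were higher and Sox1 was at -0.09. The 4 summed to 14603 units in EpiSC and 61614 in ELA-EpiSC, with the intermediate filament genes Nefl (2.18) and Nes (2.11) past 1. All 6 mesenchymal markers had a value and were higher, Thy1 by 0.05 and Col1a2 by 0.08, with sums of 4068 and 6904 units, and the collagen gene Col1a1, at 7.07 and 10.79 (3.72), and the receptor gene Pdgfra, at 7.98 and 9.74 (1.77), past 1. The 5 trophoblast markers summed to 3666 and 4644 units, with Tfap2c (1.16) and Elf5 (-1.48) past 1 in opposite directions. The part of these other cell types in the histone differences was not tested.

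**Figure D5:**
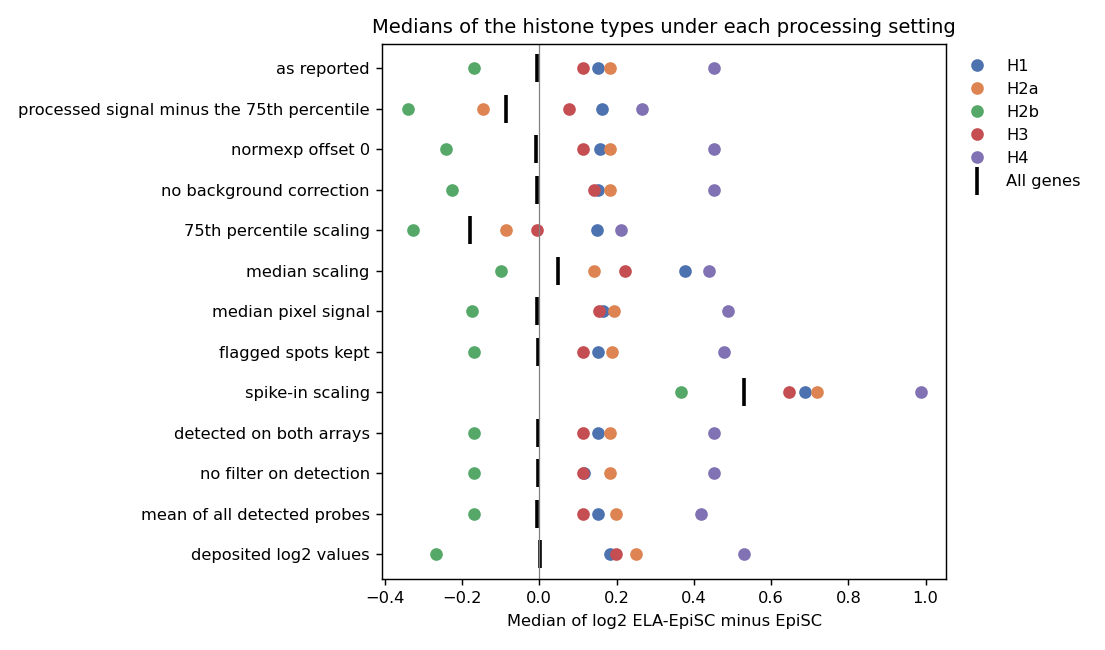
Median difference between the arrays (log2 ELA-EpiSC minus EpiSC) of each histone type under the settings used here and the 12 alternatives, with the median of all genes as a black tick. H2b lies left of the tick and H4 right of it in every row, and the tick itself moves from -0.18 with 75th percentile scaling to 0.53 with spike-in scaling.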

How the data were processed

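The authors deposited scanner files of 2 one-colour Agilent mouse arrays with spot intensity on a linear scale, and a table of log2 values, made per their methods by background correction and quantile normalization. Per the file headers the scanner software was Feature Extraction 10.7.3.1, whereas the submitters' processing notes name 9.1; both arrays shared 1 slide and 1 scan. Per the labels 50 ng of RNA was labelled with Cy3, where the methods give another amount.

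Mean spot signals were corrected against median local background by normexp (offset 50), control and outlier spots (158 for EpiSC and 117 for ELA-EpiSC, 0 of them of histone probes) were left out, and the arrays were quantile normalized and taken as log2 with limma 3.58.1 in R 4.3.3, steps that were tested on simulated data. Probes well above background numbered 65.9% and 65.0%; the number of arrays limits precision. Each gene took its brightest probe, by mean log2, among probes with at least 0.5 of spots well above background on 1 array or more. Genes were counted past 1 at a mean log2 of at least 7.5, sizes taken from the study's methods.

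Named genes were the 3 brightest of each histone type, genes past 1 (up to 4 a list), and Slbp, Npat, H3f3a, H3f3b, H2afx, H2afz, H1f0, H1fx and Pcna; other genes were named after their values were seen. The rule also provides for histone genes past 1, for genes detected on 1 array only and for probes of opposite sign past 0.5; none met it. The members and the lists were chosen with earlier results of these data known. Promoter sequences are RefSeq's (GRCm38.p6).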

Additional observations from a re-analysis of the deposited data

How the results depend on the processing

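The counts of histone genes past 1 were 0 in both directions in all alternatives but 2. A threshold of 1.5-fold gave 7 towards ELA-EpiSC and 3 towards EpiSC. The share of all genes past 1.5-fold was not counted, so nothing is read from these 2 counts. Spike-in scaling gave 10 higher in ELA-EpiSC. It moved the calls over all genes from 756 and 742 (50.5% of calls higher in ELA-EpiSC) to 2481 and 306 (89.0%). Median scaling moved them to 1107 and 522 (68.0%). The median difference of the histone genes, 0.14, became -0.09 on the processed signal (-0.095), -0.07 with 75th percentile scaling (-0.065) and 0.67 with spike-in scaling; beside medians of all genes of -0.09, -0.18 and 0.53 these were below, above and above. In the other 9 alternatives it lay between 0.12 and 0.18. Of the 43 genes, 28 kept their sign in all alternatives apart from spike-in scaling, which turned 12 of the 15 negative genes positive, and 31 stayed on the same side of the median of all genes in all 12. Some of the 12 could hardly change this, since the detection filters left the values of these genes as they were. Spike-in scaling, moreover, moves all genes alike relative to their median. Of the 11 probes past a gene's end or in long gene models, 8 to 11 were lower in ELA-EpiSC apart from spike-in scaling (2). The background limits the dim genes: 7 of 43 had a mean log2 under 7.5. No paired analysis was possible because there was a single array per group.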
